A study of Mus musculus with 4 samples.

Results

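The regions described here are intergenic sites of the mouse genome with a CUT&RUN peak in both libraries of medullary thymic epithelial cells labelled mTEClo. Neither library of those labelled mTEChi had a peak there. They were chosen by 3 steps. The equally wide intervals of the 4 deposited peak lists, 150 bp to each side of a summit, were merged wherever they shared at least 1 bp. Merged regions on chromosomes 1 to 19 were kept where both mTEClo lists and neither mTEChi list held a peak. Of these, the regions whose midpoint lay more than 5 kb from every protein-coding gene interval were the members. They numbered 2618 of 258125 merged regions, and of 109886 intergenic merged regions. Presence of a peak and the distance from a gene were therefore used in the choice. The score was not used directly, but whether a peak is listed depends on it. Presence, score and distance are all given as a description.

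The 4 libraries, 2 of mTEClo and 2 of mTEChi, came from thymus of mice aged 4 to 5 weeks whose genotype is labelled Trp53-WT, the unaltered state of the gene that encodes p53. EpCAM+ cells were enriched from digested thymic stroma and sorted by flow cytometry, and 500000 cells were used for each condition. How the sorting gates were set, how many mice were used and whether each replicate had its own mice is not stated in the labels. The antibody is anti-P53 by the sample titles but anti-BAF155 by the protocol text (BAF155 is a core subunit of the BAF chromatin remodelling complex), and it remains unsettled here which of these proteins the peaks mark.

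CUT&RUN uses an antibody to bring a protein A-MNase fusion to a chromatin protein in permeabilised cells, and the nuclease releases the DNA next to it for sequencing. Medullary thymic epithelial cells present self-antigens to developing T cells. By common usage, mTEClo cells carry low surface levels of MHC class II and include immature cells and progenitors, and mTEChi cells carry high levels and include the Aire-expressing cells. Intergenic sites bound by transcription factors or remodellers are often enhancers, which act on promoters over long distances and tend to be used in fewer cell types than promoters are. The nearest gene is not always the gene an enhancer acts on, so gene names below state a position and nothing more. Peak lists hold no expression values, so the labelled cell types could not be checked against their markers.

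Letters of the genome were at hand for the few members that overlap a RefSeq promoter window of a long noncoding RNA (lncRNA), defined as 250 bases before to 50 bases after the start of the gene. There were 44 such members (1.68% of 2618). The 5 sequences shown are the part of the member inside that window, for the highest-ranked members that share at least 250 bases with one, and they were chosen after the values were seen. They are shown because each includes the annotated start of a transcript. Each is written 5′ to 3′ on the strand of the lncRNA in mm10 (GRCm38.p6, RefSeq), with capitals for a match to a searched motif. Gm51774 is on the plus strand (chr10:76642808-76643107) and held none of the 8 motifs. Gm34026 is on the plus strand (chr8:106399795-106400067) and held an AP-1 site. Gm36495 is on the minus strand (chr12:16850903-16851185) and held an AP-1 site, a p53 half-site and an E-box. Gm41527 is on the minus strand (chr17:12370297-12370596) and held no motif. Gm33782 is on the plus strand (chr10:96308847-96309130) and held a p53 half-site.
Gm51774: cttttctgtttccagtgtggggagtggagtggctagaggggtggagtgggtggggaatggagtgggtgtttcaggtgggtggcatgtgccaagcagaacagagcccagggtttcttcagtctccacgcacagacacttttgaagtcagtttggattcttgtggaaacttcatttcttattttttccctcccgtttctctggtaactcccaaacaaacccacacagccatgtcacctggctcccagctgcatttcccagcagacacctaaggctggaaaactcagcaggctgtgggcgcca
Gm34026: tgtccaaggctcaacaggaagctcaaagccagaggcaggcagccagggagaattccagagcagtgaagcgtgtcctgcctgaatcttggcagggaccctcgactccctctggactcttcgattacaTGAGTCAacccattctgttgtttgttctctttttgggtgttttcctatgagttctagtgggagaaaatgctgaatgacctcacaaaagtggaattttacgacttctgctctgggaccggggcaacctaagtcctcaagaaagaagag
Gm36495: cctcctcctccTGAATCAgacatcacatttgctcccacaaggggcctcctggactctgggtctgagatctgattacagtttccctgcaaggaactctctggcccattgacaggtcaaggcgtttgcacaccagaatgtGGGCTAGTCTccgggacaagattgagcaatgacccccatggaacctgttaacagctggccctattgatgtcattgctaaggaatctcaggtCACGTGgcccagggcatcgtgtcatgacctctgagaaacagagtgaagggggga
Gm41527: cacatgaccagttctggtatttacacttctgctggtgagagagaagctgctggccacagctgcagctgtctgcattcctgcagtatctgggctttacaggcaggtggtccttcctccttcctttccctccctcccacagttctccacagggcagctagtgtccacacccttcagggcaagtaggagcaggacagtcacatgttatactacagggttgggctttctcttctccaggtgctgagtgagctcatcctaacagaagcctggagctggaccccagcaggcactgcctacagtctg
Gm33782: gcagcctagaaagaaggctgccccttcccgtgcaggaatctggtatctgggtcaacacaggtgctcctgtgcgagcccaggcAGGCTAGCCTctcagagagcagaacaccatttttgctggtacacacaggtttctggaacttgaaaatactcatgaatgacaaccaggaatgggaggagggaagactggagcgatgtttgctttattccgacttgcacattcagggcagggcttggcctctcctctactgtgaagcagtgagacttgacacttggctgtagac

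The 5 regions differed in where the mTEClo summits lay relative to the lncRNA start. At Gm51774 the member scored 9.41 in mTEClo replicate 1 and 15.7 in replicate 2, and its summits lay 115 and 160 bases after the start. The score is a p-value or q-value of the peak caller on a −log10 scale, so a higher value is a stronger call. At Gm34026 the scores were 8.85 and 11.0, with summits at positions -158 and -128 from the start. At Gm36495 the scores were 13.6 and 6.004, with summits at -200 and -118. The summits of the Gm41527 member (10.6 and 6.004) lay at -75 and -138, and those of the Gm33782 member (8.002 and 5.83) at -46 and -84. In 4 of the 5 regions, then, both summits lay before the start, and in 1 both lay after it. Over all 44 members at lncRNA promoters, both summits were within 150 bases of the start in 19. Members overlapped such windows about as often as mTEChi-only intergenic regions did (30 of 1723, 1.74%) and less often than intergenic regions held by all 4 lists (58 of 930, 6.24%). 

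Base composition and motifs were read in the 33 windows that share at least 150 bases with a member, beside 5345 lncRNA and other noncoding promoter windows more than 5 kb from a protein-coding gene. The member windows had a median GC share of 52.7%, against 46.7% for all such windows, 50.5% for the 20 windows of mTEChi-only regions and 55.7% for the 47 windows of regions in all 4 lists. At least 10 CpG dinucleotides were present in 21.2% of the member windows, 7.99% of all windows, 10% of mTEChi-only windows and 59.6% of windows held by all 4 lists. On this measure the member windows lay between the background and the regions shared by all libraries. Motifs were searched on both strands, and a window counted once per motif. The p53 half-site, a decamer with the core C(A/T)(A/T)G between purines and pyrimidines, was found in 7 of the 33 member windows (21.2%), 10.9% of all windows, 0 of 20 mTEChi-only windows and 10.6% of the windows of all 4 lists. An AP-1 site (TGANTCA) was found in 18.2% of member windows, 10.8% of all windows, 30% of mTEChi-only windows and 6.38% of those of all 4 lists. In the same order, the GC box (GGGCGG) was found in 15.2%, 8.79%, 15% and 46.8%, and the Ets core (CCGGAA) in 9.09%, 6.14%, 0% and 25.5%. The Runx site (TGTGGT) was found in 27.3%, 21.7%, 35% and 14.9%, and the CCAAT box in 33.3%, 37.5%, 30% and 36.2%. The TATA box (TATAAA) was found in 6.06%, 17.8%, 25% and 4.26%, and the E-box CACGTG in 3.03%, 5.54%, 20% and 12.8%. One of the 33 windows is 3.03%, as wide as the gap to all windows at the Ets core or the E-box. The sets of 33, 20 and 47 windows are small, and no motif share, that of the p53 half-site included, was tested. A match of letters is not a bound site.

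One member overlapped a microRNA hairpin. It covered chr7:139957712-139958080 and included part of the hairpin of Mir202 (chr7:139957689-139957760, minus strand), a microRNA known from the gonads. Its scores were 5.12 and 3.48, its nearest protein-coding gene, Utf1, lay 12784 bp away, and the nearest summits of mTEChi replicates 1 and 2 lay 6582 and 9953 bp from its midpoint. The 2 mature arms from RefSeq are shown with the seed, bases 2 to 8, in capitals, and they do not share a seed.
mmu-miR-202-3p: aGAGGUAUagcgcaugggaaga
mmu-miR-202-5p: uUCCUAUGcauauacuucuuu
The overlap was the single one among the members, and there was 1 among the mTEChi-only intergenic regions and 0 among those of all 4 lists.

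The mTEClo lists were 89809 (replicate 1) and 69359 (replicate 2) peaks long, and the mTEChi lists 73510 and 85308. Read counts are not in the lists, so sequencing depth is unknown, and no library with a control antibody was analysed here. Members took 2649 and 2635 of the peaks of the mTEClo lists, which is 7.56% and 9.54% of the intergenic peaks of these lists. Members were 2.38% of all intergenic merged regions. The same rule with the states exchanged gave 1723 mTEChi-only intergenic regions (1.57%), and 930 (0.846%) held a peak in all 4 lists. The ratio of mTEClo-only to mTEChi-only intergenic regions was 1.52 (95% interval 1.43 to 1.61, for counting error only). That ratio was 1.06 (350 against 329 regions) when each list was cut to its 10000 highest peaks.

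Most intergenic peaks were seen in 1 library. Of the 109886 intergenic regions, 97781 (89.0%) were held by 1 list, 9016 (8.20%) by 2, 2159 (1.96%) by 3 and 930 by all 4. Among regions held by exactly 2 lists, the mTEClo pair had the highest count, 2618, and the mTEChi pair the next, 1723. The pairs that cross the states held 1496 (mTEClo replicate 1 with mTEChi replicate 1), 1418 (mTEClo replicate 1 with mTEChi replicate 2), 791 (mTEClo replicate 2 with mTEChi replicate 1) and 970 (mTEClo replicate 2 with mTEChi replicate 2). A region in exactly 2 lists was therefore no rarity for libraries of different states, and how many of the members would keep their pattern in further libraries was not tested. Allowing a single mTEChi list to hold a peak as well would add 773 regions for mTEChi replicate 1 and 473 for mTEChi replicate 2.

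The members had middling scores. In mTEClo replicate 1 their scores ran from 2.00 to 21.4 with a median of 4.596 (quartiles 3.62 and 6.21), and in replicate 2 from 2.02 to 22.1 with a median of 4.15 (quartiles 3.48 and 5.46). These medians stood at percentiles 57.9 and 58.1 of all peaks of the list. For intergenic regions held by all 4 lists the medians stood at percentiles 90.2 and 83.5 of the same lists. In the upper 25% of both mTEClo lists lay 447 members (17.1%), and 17.5% of the mTEChi-only intergenic regions lay in the upper 25% of both mTEChi lists. For regions in all 4 lists the share was 46.3%. Under the median of both lists lay 424 members (16.2%). Among the 500 highest peaks of a mTEClo list there were members in 15 cases for either list and 0 for both. Scores came in steps, so that the 5 most frequent values covered 44.8% of the members in replicate 1 and 52.3% in replicate 2. Across the 2618 members, which share the same 2 libraries, the log2 scores of the replicates had a Pearson r of 0.218 and a Spearman rho of 0.176. A member that ranked high in 1 replicate thus often ranked in the middle of the other.

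**Figure D1:**
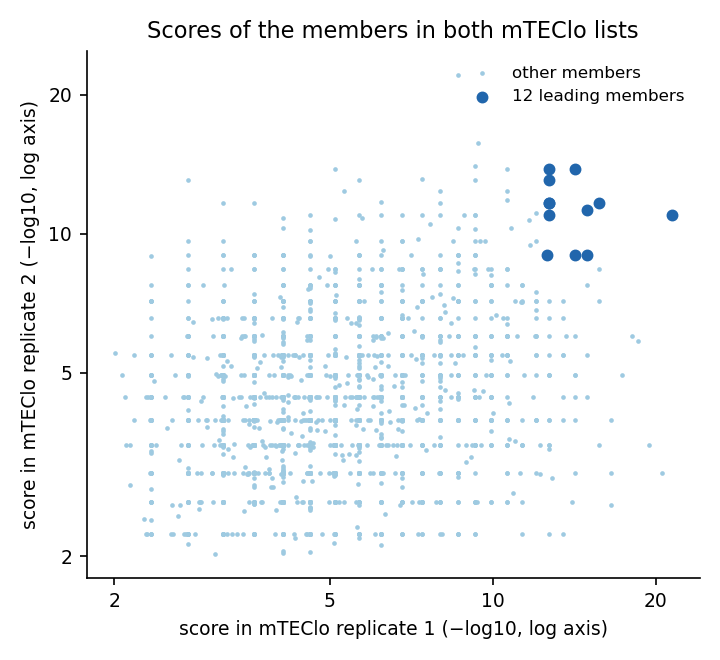
Score of each of the 2618 members in mTEClo replicate 1 (x axis) and replicate 2 (y axis), as deposited −log10 values on log axes. Light points are members and dark points the 12 leading members, all of which scored at least 12.6 in replicate 1 and at least 9.003 in replicate 2, and the rows and columns of points show the steps of the score.

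The 12 leading members, those with the best worst rank over both mTEClo lists, were headed by a site 17880 bp from Cdc42, which encodes a small GTPase of the actin cytoskeleton and cell polarity (chr4:137375461-137375817). It scored 21.4 and 11.0, and its summits lay 56 bp apart. The nearest mTEChi summits were 5143 and 5313 bp from its midpoint. The next lay 299542.5 bp from Api5, which encodes an inhibitor of apoptosis (chr2:94737570-94737887, scores 15.7 and 11.7, summits 17 bp apart), inside the lncRNA Gm33540. Midpoints can fall between bases. The third lay 10740.5 bp from Ksr1, a scaffold of the Ras-MAP kinase pathway (chr11:79002543-79002856, scores 14.96 and 11.3), with a mTEChi replicate 1 summit 754.5 bp away. At Insig2, whose protein holds the sterol sensor SCAP in the endoplasmic reticulum, the site lay 34760 bp from the gene and scored 14.2 and 13.8 (chr1:121367230-121367614). Of these 4 sites, the one at Ksr1 had a mTEChi summit within 1 kb and the other 3 had none.

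The next 5 members tied in replicate 1 at a score of 12.7. The site 52385 bp from Prmt6, an arginine methyltransferase, scored 13.8 in replicate 2 and its summits lay 2 bp apart (chr3:110303233-110303535). The site 60258 bp from Capza3, an actin capping subunit of sperm, scored 13.1 in replicate 2 (chr6:140102895-140103295). The site 65170 bp from Gas1, which encodes a co-receptor of hedgehog ligands, scored 11.7 (chr13:60242494-60242916). The site at Rarg, a retinoic acid receptor, scored 11.7 and lay 5270.5 bp from the gene (chr15:102262638-102262947). It had a mTEChi replicate 2 summit 471.5 bp from its midpoint, the closest among the 12. The site 48615.5 bp from Tpd52 scored 11.0 (chr3:9053849-9054168).

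The last of the 12 scored 9.003 in replicate 2. One lay 358346.5 bp from Adgrl2, an adhesion receptor of the latrophilin family (chr3:149347283-149347602, 14.96 in replicate 1). Another lay 14500.5 bp from Znrf2, a ubiquitin ligase (chr6:54802210-54802621, 14.2 in replicate 1). The third lay 26329 bp from Nhlh2, a transcription factor of neurons (chr3:102041648-102041994, 12.6 in replicate 1). At Nhlh2 both mTEChi lists had a summit close by, 547 and 537 bp from the midpoint, so the interval that marks the member lay next to a site of both mTEChi libraries. Distances to the gene among the 12 ran from 5270.5 bp at Rarg to 358346.5 bp at Adgrl2.

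Replicate summits inside a member lay close together, as far as the fixed width of the intervals allows. The distance between the best summits of both mTEClo lists had a median of 81.5 bp (quartiles 34 and 149.75 bp, largest 300 bp), against 88 bp in mTEChi-only intergenic regions and 63 bp for mTEClo summits in regions of all 4 lists. Within 75 bp of each other lay the summits of 1243 members (47.5%), 761 mTEChi-only regions (44.2%) and 525 regions of all 4 lists (56.5%). Exactly 2 peaks made up 2571 members (98.2%), 46 had 3 peaks and 1 had more. The median member was 383 bp wide, and the widest 791 bp.

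Members lacked a mTEChi peak in their own interval, but mTEChi summits nearby were common. The mTEChi lists held 73012 and 84553 peaks on chromosomes 1 to 19. Distances to the nearest mTEChi summit were not set against those of random positions, so closeness beyond this density was not tested. From the midpoint of a member to the nearest mTEChi summit the median distance was 4648 bp, with a range from 308.5 to 340579 bp. A mTEChi summit lay within 500 bp of 98 members (3.74%), within 1 kb of 302 (11.5%), within 5 kb of 1371 (52.4%) and within 10 kb of 1980 (75.6%). From mTEChi-only intergenic regions to the nearest mTEClo summit the median was 5354 bp. Some members were decided by a few bases. A mTEChi interval began within 100 bp of 68 members and within 1 kb of 442 (16.9%). The gap was 1 bp at chr1:180777558-180778004, a member 23577 bp from Acbd3 with scores of 5.12 and 6.497. It was 2 bp at chr15:36365292-36365708 near Rnf19a (scores 6.79 and 3.93) and 4 bp at chr12:55437467-55437776 near Psma6, a proteasome subunit gene (scores 4.10 and 3.94).

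**Figure D2:**
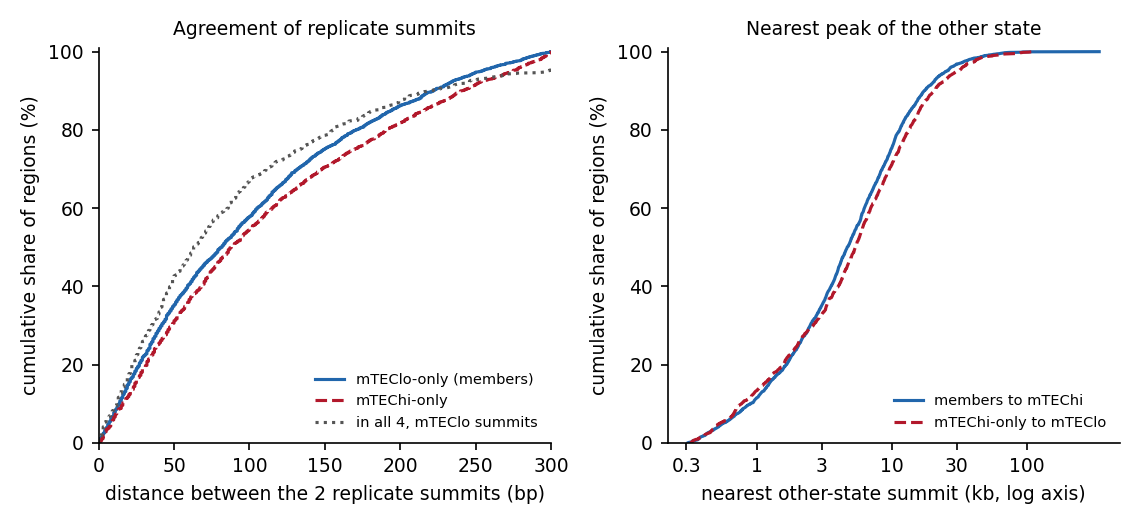
Cumulative share of regions (y axes, %) by the distance between the replicate summits in bp (left) and by the distance from the midpoint to the nearest summit of the other state in kb on a log axis (right). Members are drawn as solid lines, mTEChi-only intergenic regions as dashed lines and regions of all 4 lists as a dotted line: the medians on the left are 81.5, 88 and 63 bp, and on the right 4648 bp for members and 5354 bp for mTEChi-only regions.

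Members lay nearer to genes than most other intergenic regions did, but farther than those of the 2 compared classes. Their median distance to the nearest protein-coding gene was 51069.5 bp (quartiles 19105.25 and 141095 bp), beyond the 40689.5 bp of mTEChi-only regions and the 30201.5 bp of regions in all 4 lists, but short of the 72161 bp of the remaining intergenic regions. More than 50 kb from a gene lay 1323 members (50.5%), 44.7% of mTEChi-only regions, 35.8% of regions in all 4 lists and 57.8% of all intergenic regions. More than 250 kb away lay 337 members (12.9%), against 21.4% of all intergenic regions. Neither score followed the distance across the 2618 members (Spearman rho -0.0159 in replicate 1 and 0.0251 in replicate 2, a description across regions of the same libraries).

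The share of intergenic regions that were members fell with distance, but less steeply than for regions in all 4 lists. At 5 to 10 kb from a gene 2.75% of merged regions were mTEClo-only (292 regions), 2.31% mTEChi-only (245) and 1.499% in all 4 lists (159). At 50 to 100 kb these shares were 2.69%, 1.47% and 0.769%. Beyond 500 kb they were 1.06% (106 regions), 0.621% (62) and 0.150% (15). The mTEClo-only share thus stayed between 2.67% and 2.92% in the classes up to 100 kb, while the share in all 4 lists went from 1.499% to 0.769%. The ratio of mTEClo-only to mTEChi-only regions was lowest at 5 to 10 kb, 1.19, and highest at 50 to 100 kb, 1.83. Inside genes, where the rule finds no member, the shares were 2.98%, 1.95% and 1.92%, and within 5 kb of a gene 3.44%, 2.54% and 8.47%. Over both of these classes together they were 3.05%, 2.04% and 2.84%.

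**Figure D3:**
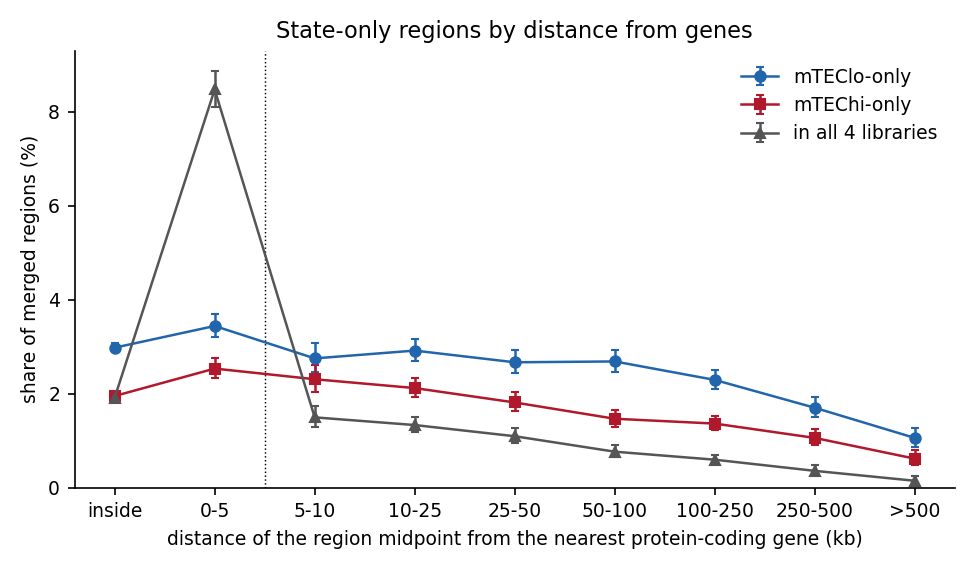
Share of merged regions (y axis, %) that were mTEClo-only, mTEChi-only or held by all 4 lists, by distance of the midpoint from the nearest protein-coding gene in kb (x axis, classes). Bars are 95% Wilson intervals for counting error only, the dotted line marks the 5 kb limit of the rule, and to its right the mTEClo-only share falls from 2.75% to 1.06% and the share of all 4 lists from 1.499% to 0.150%.

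The 3 members farthest from a gene lay in large gene deserts. One lay 2148101 bp from Pik3c3, which encodes a lipid kinase of autophagy (chromosome 18, 28117308 to 28117720, scores 3.62 and 3.48). The others lay 1794377 bp from Pcdh20 (chr14:90265607-90265939, scores 3.17 and 4.42) and 1585371 bp from Pcdh7 (chr5:56130568-56130980, scores 3.62 and 4.93), both protocadherin genes. Of these 6 scores, 4 were under the median of the members in the same list. Just inside the 5 kb limit lay members at Ift43 (5001 bp, scores 5.25 and 3.48), Exoc3l4 (5004.5 bp, scores 8.002 and 5.25) and Aen (5023 bp, scores 12.8 and 2.95). Just outside it lay mTEClo-only regions at Gcnt2 (4996 bp, scores 4.10 and 6.004), Tspan18 (4994.5 bp, scores 4.10 and 3.48) and Arhgap32 (4990.5 bp, scores 7.39 and 12.4). The regions on both sides were picked by distance, and a change of score at the limit was not tested.

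Members lay on all of chromosomes 1 to 19. Their share of the intergenic regions of a chromosome ran from 1.98% on chromosome 14 (99 of 4992) to 3.01% on chromosome 11 (167 of 5552). mTEChi-only regions ran from 1.13% on chromosome 12 (67 of 5942) to 1.98% on chromosome 14. Members outnumbered mTEChi-only regions on 18 of 19 chromosomes, and on chromosome 14 both counted 99.

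**Figure D4:**
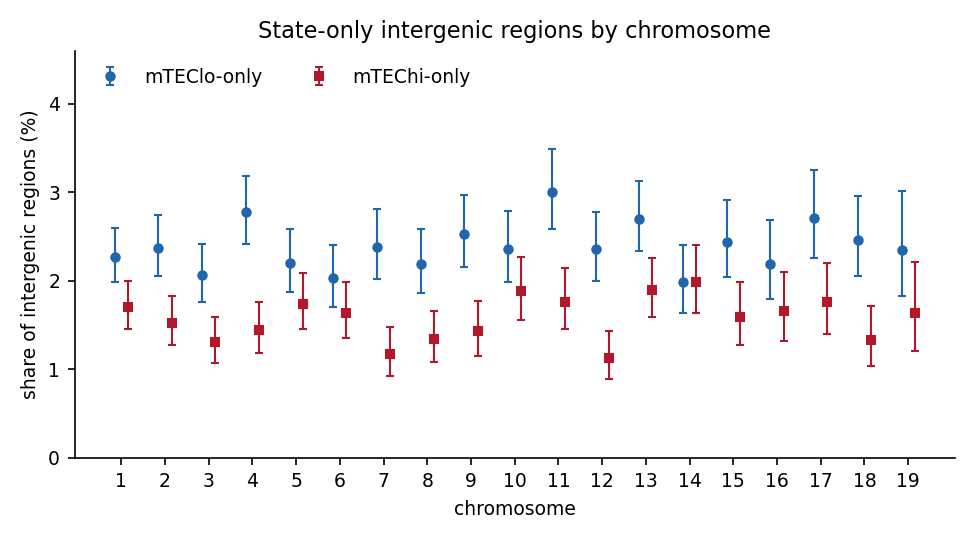
Share of intergenic merged regions (y axis, %) that were mTEClo-only (circles) or mTEChi-only (squares) on each of chromosomes 1 to 19 (x axis). Bars are 95% Wilson intervals for counting error only, and the mTEClo-only share is above the mTEChi-only share on every chromosome except 14, where both are 1.98%.

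Members were spread thinly over the genome, with a few fuller spaces between genes. Of 8267 spaces between neighbouring protein-coding genes that hold an intergenic region, 1669 held a member, and 1132 of these held exactly 1. At least 5 members lay in 43 spaces, which took 260 members in all, and 11 of the 43 held no mTEChi-only region. At least 5 mTEChi-only regions lay in 11 spaces. The background is 2.38% of intergenic regions, and spaces named for their count were picked by it, so their shares are a description.

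The fullest space lay between Tnp1, a transition protein gene of sperm chromatin, and Tns1, which encodes tensin 1 of cell-matrix adhesions. It held 10 members, 1 mTEChi-only region and 0 of all 4 lists among 96 regions in 894333 bp of chromosome 1. Of the 10 members, 7 were nearer Tns1, and the strongest in replicate 1 lay 85726 bp from that gene (chr1:73824309-73824703, scores 10.4 and 5.46). The space between Klf4, a zinc finger factor of epithelia and of pluripotency, and Actl7b held 9 members, 1 mTEChi-only region and 1 of all 4 lists among 134 regions. The members nearest Klf4 lay 217696, 295087.5 and 587872.5 bp from it. Between Sall3 and Galr1 on chromosome 18 there were 9 members, 1 mTEChi-only region and 1 of all 4 lists among 207 regions. In these 3 spaces the mTEClo-only regions outnumbered the mTEChi-only ones by 9 or 10 to 1.

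The gene desert between Myc, a proto-oncogene of cell growth, and Gsdmc on chromosome 15 held 9 members. The space also held 4 mTEChi-only regions and 4 of all 4 lists among 191 regions. The space on the other side of Myc, up to A1bg, held 7 members and 2 mTEChi-only regions among 96 regions. Myc was the nearest gene of 10 members, the most for any gene, followed by Plpp3 and Tns1 with 7 each. It was nearest to 158 intergenic regions of any kind, against 55 for Plpp3 and 44 for Tns1, so its share of members was lower than theirs. The highest of the 10 by worst rank lay 531072 bp from Myc (chr15:61454098-61454440, scores 9.94 and 7.15), with a mTEChi replicate 1 summit 684 bp from it. The member closest to Myc lay 45868.5 bp away (chr15:61939292-61939653, scores 4.596 and 9.65).

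The space between Gm5148 and Ankrd50 on chromosome 3 held 8 members, 0 mTEChi-only regions and 0 of all 4 lists among 91 regions. That between Hdac4 and Ndufa10 on chromosome 1, 243784 bp long, held 7 members, 1 mTEChi-only region and 0 of all 4 lists among 41 regions, so that 17.1% of its regions were members, or 28.7 per Mb. The 6 nearest to Ndufa10, a subunit gene of respiratory complex I, formed a row over 75734 bp (chr1:92329823-92405556), the longest chain of members with links of up to 50 kb. The strongest of them in replicate 1 scored 13.5 there and 4.42 in replicate 2 (chr1:92348338-92348693). The space between Thap1 and Zfp703 on chromosome 8 held 8 members, 6 mTEChi-only regions and 5 of all 4 lists among 103 regions. That between Rps24 and Zmiz1 on chromosome 14 held 8, 4 and 0 among 159 regions.

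**Figure D5:**
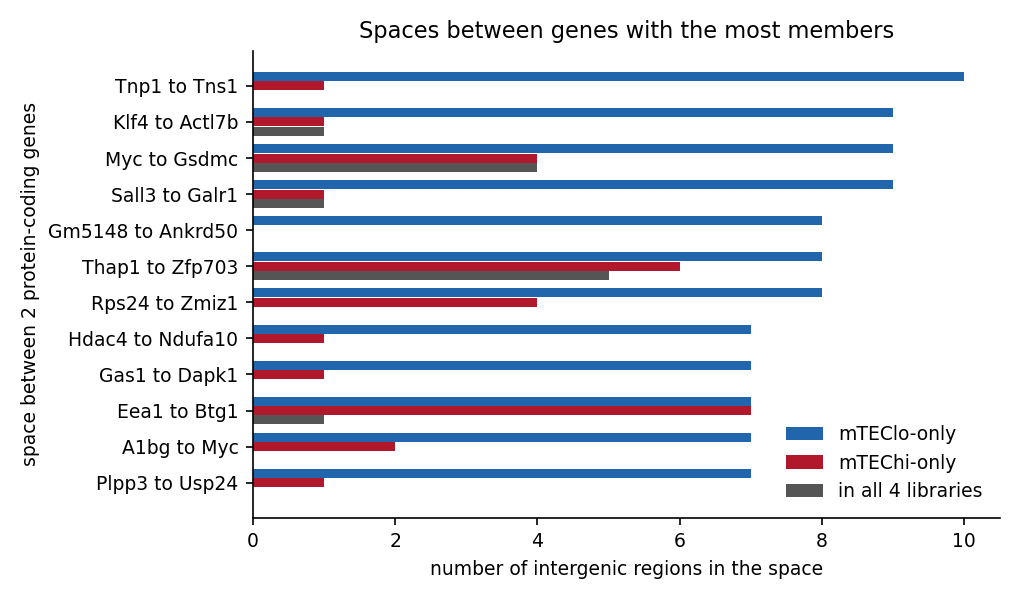
Number of intergenic regions (x axis) that were mTEClo-only, mTEChi-only or in all 4 lists in the 12 spaces between protein-coding genes with the most members (y axis, flanking genes). The bars run from 10 to 7 members, with 0 mTEChi-only regions at Gm5148 to Ankrd50 and as many mTEChi-only regions as members, 7, at Eea1 to Btg1.

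Neighbours within 10 kb were counted over regions of any position, those in or near genes included. Another mTEClo-only region lay within 10 kb of 310 members (11.8%), a mTEChi-only region within 10 kb of 133 (5.08%), and a region of all 4 lists within 10 kb of 139 (5.31%). Of the mTEChi-only intergenic regions, 7.54% had a mTEClo-only region and 12.4% another mTEChi-only region within 10 kb. Of the intergenic regions in all 4 lists, 13.4% had a mTEClo-only region, more than the members did. A mTEChi-only region lay within 10 kb of 11.0% of them, and another region of all 4 lists within 10 kb of 13.2%. For intergenic regions outside the 3 classes these shares were 5.90% for mTEClo-only regions, 3.87% for mTEChi-only regions and 2.98% for regions of all 4 lists. Among members alone, with links of up to 10 kb, 277 fell into 135 chains of at most 4, and with links of up to 50 kb 756 (28.9%) fell into 336 chains. The second longest held 5 members over 110587 bp between Zbtb40 and Wnt4, a Wnt ligand gene (chr4:137097713-137208299).

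Noncoding genes, which the rule ignored, covered part of the members. Inside a lncRNA gene lay 522 members (19.9%, 95% Wilson interval 18.5 to 21.5), against 18.2% of mTEChi-only regions, 23.8% of regions in all 4 lists and 15.9% (15.7 to 16.2) of the remaining intergenic regions. Within 1 kb of a lncRNA end lay 155 members (5.92%), 5.40% of mTEChi-only regions, 11.8% of regions in all 4 lists and 3.77% of the rest. Pseudogenes held 33 members (1.26%), 0.987% of mTEChi-only regions, 0.860% of regions in all 4 lists and 1.41% of the rest.

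The genes of immature medullary epithelium were the nearest gene of 15 members, 0.573% of 2618, against 5 mTEChi-only regions (0.290%), 6 regions of all 4 lists and 0.252% of all intergenic regions. The 15 were spread over 7 of 22 genes. Sox4, a transcription factor of progenitors, had 5 of them, at 31052 to 365157.5 bp from the gene, and also 2 of the 5 mTEChi-only regions. The highest-ranked Sox4 member scored 5.89 and 5.46 (chr13:28917612-28918122). Nfib, a nuclear factor I gene, had 3, led by a member 82962.5 bp away with scores of 8.63 and 7.15 (chr4:82589511-82589916). Lifr, the receptor of leukaemia inhibitory factor, had 3 at 15163 to 90606 bp. Cldn4, a tight junction gene known to mark medullary epithelium, had 1 at 16834 bp with scores of 6.10 and 5.999 (chr5:134963589-134963947). Ccl21a, a chemokine gene of mTEClo cells, had 1 at 24878 bp with scores of 3.17 and 4.42. Krt5, Krt14 and Pdpn had 0 members and 1 mTEChi-only region each. All of these are counts of nearest genes over lists chosen with earlier results known, and the mTEClo-only call is part of the choice.

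Genes of thymic epithelial identity were nearest to 12 members (0.458%), 8 mTEChi-only regions (0.464%), 10 regions of all 4 lists (1.08%) and 0.361% of all intergenic regions. Il7, the cytokine gene that sustains early thymocytes, had 1 at 85535 bp with scores of 8.63 and 8.31 (chr3:7699105-7699485), and a mTEChi replicate 2 summit lay 1028 bp from it. Il7 also had 3 mTEChi-only regions. Cxcl12, a chemokine gene for thymic progenitors, had 3 members and 0 mTEChi-only regions, led by one 198667 bp away with scores of 8.63 and 7.75 (chr6:117379819-117380251). Pax1, a factor of pharyngeal pouch development, had 3 members and 0 mTEChi-only regions, at 9015.5, 19388 and 172752 bp, with scores of 2.74 to 9.94 in replicate 1. The member at 19388 bp was the highest-ranked (chr2:147394277-147394597, scores 9.94 and 3.48).

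Genes of mature medullary epithelium were nearest to 2 members (0.0764%, 95% Wilson interval 0.0210 to 0.278), 3 mTEChi-only regions and 6 regions of all 4 lists. The interval of the members holds the 0.122% of all intergenic regions. The 2 were at Prdm1, a repressor active in terminal differentiation (226950 bp, scores 6.21 and 5.46, chr10:44755339-44755677), and Irf8, an interferon regulatory factor (145766 bp, scores 5.66 and 7.99, chr8:120902239-120902681). Factors of mimetic cells, the medullary cells that take on programmes of other tissues, were nearest to 10 members (0.382%), 6 mTEChi-only regions and 0 of all 4 lists, close to the 0.356% of all intergenic regions. Gata3, a factor of T cells and of several epithelia, had 4 members and 0 mTEChi-only regions, at 140869.5 to 524960 bp. The highest-ranked scored 9.94 and 7.75 (chr2:9377997-9378519). Neurod1, a neuroendocrine factor, had 1 at 28716.5 bp with scores of 5.12 and 6.004 (chr2:79485183-79485522).

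Genes that p53 activates were nearest to 3 members (0.115%), 10 mTEChi-only regions (0.580%) and 7 regions of all 4 lists (0.753%), beside 0.213% of all intergenic regions. Of the 234 intergenic regions nearest to a gene of this list, 1.28% were members, against 2.38% of all intergenic regions. The mTEChi-only share of the 234 was 4.27%, against 1.57% of all intergenic regions. Fas, the death receptor gene, had 1 at 65541 bp with scores of 8.002 and 4.42 (chr19:34393134-34393498). Perp, an apoptosis effector and desmosome gene, had 1 at 12019.5 bp with scores of 7.39 and 3.48 (chr10:18868882-18869303). Aen, a nuclease gene of apoptosis, had the member just inside the 5 kb limit (chr7:78890703-78891105). None of the 3 genes had a mTEChi-only intergenic region. Cdkn1a, Mdm2, Pmaip1 and Gadd45a had 0 members and 1, 1, 2 and 2 mTEChi-only regions. Counts this small have wide intervals: the share of members was 0.115% with 95% Wilson bounds of 0.0390 and 0.336%, and that of mTEChi-only regions had bounds of 0.316 and 1.07%.

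Developmental transcription factors, many of which lie in gene deserts, were nearest to 100 members (3.82%), 43 mTEChi-only regions (2.50%), 18 regions of all 4 lists (1.94%) and 3.89% of all intergenic regions. The share of members was thus that of the background. They were spread over 45 genes. After Myc, the counts were highest at Tcf4 (6), Sox4 (5), Pax3, Sall3 and Sox9 (4 each). Of mTEChi-only regions, Myc had 4, Tcf4 had 1, Sox4 and Pax3 had 2 each and Sall3 had 0. The highest-ranked were at Tfap2a, a factor of ectoderm and neural crest (16777 bp, scores 10.6 and 7.75, chr13:40754860-40755170), the Myc site above, and Pax3 (226976 bp, scores 8.63 and 7.15, chr1:77874094-77874488). Sox9 had 4 members with scores up to 11.0 in replicate 1 and 10.8 in replicate 2, at 19409.5 to 201530.5 bp, next to 2 mTEChi-only regions and 3 of all 4 lists.

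Synaptic and adhesion genes of gene deserts were nearest to 51 members (1.95%), 40 mTEChi-only regions (2.32%) and 9 regions of all 4 lists (0.968%), all under the 4.94% of all intergenic regions. The leading Adgrl2 member is among the 12 described above, and a second Adgrl2 member 94785 bp away scored 5.66 and 6.004 (chr3:149083594-149084168). Slit2, a guidance ligand gene, had a member 424379 bp away with scores of 5.66 and 6.004 (chr5:47556738-47557086). Cadm1, a cell adhesion gene, had the most on this list, 4 members and 0 mTEChi-only regions.

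Markers of other thymus cells were counted the same way. Thymocyte genes were nearest to 4 members (0.153%), 4 mTEChi-only regions and 5 of all 4 lists, against 0.344% of all intergenic regions. Of these 4 members, 3 were at Bcl11b, a T cell commitment factor also expressed in skin epithelium, and the highest-ranked lay 240227.5 bp away (chr12:107669931-107670420, scores 7.39 and 5.25). B cell and myeloid genes were nearest to 9 members (0.344%), 1 mTEChi-only region and 1 of all 4 lists, against 0.145%. All 9 lay at 2 genes, Tcf4 (6) and Ebf1 (3), which many other cell types also express. Both genes are on the list of developmental transcription factors too, as are Bcl11b, Sox4 and Nfib. The lists thus overlap, and the members at these genes are counted in each. The highest-ranked Ebf1 member lay 256051.5 bp away (chr11:45263991-45264304, scores 6.21 and 3.94). Fibroblast and endothelial genes were nearest to 6 members (0.229%) and 6 mTEChi-only regions against 0.241%, at Cdh5 (3), Erg (2) and Flt1 (1). The part of such cells in the members was not tested.

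The intergenic share of all peaks, a value per library that the choice of members did not use directly, asked whether the mTEClo lists lay farther from genes as a whole. The mTEClo lists had 39.2% (replicate 1) and 39.9% (replicate 2) of their peaks between genes, and the mTEChi lists 40.6% and 40.5%. The mTEClo libraries were both lower and the groups did not overlap. The means were 39.6% ± 0.531 (SD, n = 2) and 40.5% ± 0.101 (SD, n = 2), a difference of -0.965 percentage points (two-sided exact permutation test, p = 0.333, the smallest that 2 against 2 libraries allow). The difference turned to 2.34 points with the 10000 highest peaks of each list and to 0.731 with the upper part of each list by score. By class, 36.7% (95% Wilson interval 35.6 to 37.8) of 7134 mTEClo-only regions were intergenic, 36.4% (35.0 to 37.7) of 4740 mTEChi-only regions and 18.1% (17.1 to 19.2) of 5140 regions in all 4 lists. Each of these shares was below the 42.6% (42.4 to 42.8) of all 258125 merged regions. Of the 241111 regions outside these classes, 43.4% were intergenic. The mTEClo-only and mTEChi-only shares lay within each other's intervals, which cover counting error only. Regions are not replicates, so these shares do not test a difference between the states.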

How the data were processed

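CUT&RUN peak lists of 2 mTEClo and 2 mTEChi libraries were analysed, with groups and replicate numbers from the sample titles. The submitters' processing notes name mm10, MACS2 2.2.7.1, Bowtie2 2.2.9, SAMtools 1.9 and Picard; settings and any control library are not stated there. The deposited lists hold, for every library separately, a summit with 150 bp on each side and a score, read as a value on a −log10 scale (a p-value or q-value) from the authors' peak caller (lowest 2.00, a limit of 0.01); which of them is not stated. It was used to describe and rank peaks within a list, so weak peaks near that limit decide many calls.

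Intervals sharing 1 bp or more were merged, and distances ran from region midpoints to RefSeq GRCm38.p6 gene intervals (21896 protein-coding genes, no strand or exons, so exons, introns and UTRs were not assigned). Spaces are the stretches between neighbouring protein-coding genes. All 403 list names matched a gene, 2 through older names, and the synaptic list names 1 gene by both its older and its current name. Members and gene lists were chosen with earlier results of these data known. Members named were the 12 with the lowest worst rank, the 3 farthest, 3 on each side of the 5 kb limit and up to 3 per list, with the 8 fullest spaces; others were chosen after their values were seen. No leading member had a sequence, and without a mm10 genome the planned GC share was not run. Wilson intervals cover counting error only, and regions are not replicates. The library test was the two-sided exact permutation test, whose smallest p for 2 against 2 libraries is 0.333. Differences between libraries may be technical. Alternatives cut the lists by score, changed the overlap, the gene distance or the gene set, required 1 kb free of the other state, left out each library or blocked by replicate number. Scripts (Python 3.11.15, numpy 2.4.6, pandas 2.3.3, scipy 1.17.1, matplotlib 3.10.9) were tested on simulated data.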

Additional observations from a re-analysis of the deposited data

Results flagged for a closer look

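Chromosome X lies outside the rule, and its regions entered no comparison. Its peaks did count in the ranks and percentiles of scores within a list, and where lists were cut by score. It held 1648 merged regions, 804 of them intergenic, and of these 5 were mTEChi-only and 2 mTEClo-only. The 5 are listed here because they lie outside the data compared and number more than 3; as a share of the intergenic regions of the chromosome they are 0.622%, below the 1.57% of mTEChi-only regions on chromosomes 1 to 19, and the 2 are 0.249%. Peaks on chromosome X numbered 443 (replicate 1) and 228 (replicate 2) in the mTEClo lists, and 498 and 755 in the mTEChi lists.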

How the results depend on the processing

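The member count of 2618 moved to 350 with the 10000 highest peaks of each list, 1274 with the upper part of each list by score, 1602 with summits within 75 bp in place of overlap, and 1707 with noncoding genes counted as genes. It was 2300 with lists cut to 69359 peaks, 2326 and 1773 at more than 10 and 25 kb from genes, and 2176 with no mTEChi interval within 1 kb. Leaving out each library in turn gave 3089 to 29229, the highest without a mTEClo library, since 1 list then suffices for the call. The mTEClo-only to mTEChi-only ratio of 1.52 was 1.06 with the 10000 highest peaks, 1.65 beyond 25 kb and 1.65 with summits within 75 bp, and 1.47 to 1.57 under the other 5 settings that keep all libraries. Without each library in turn it ran from 0.115 to 14.7, for the same reason by construction. The intergenic share difference of -0.965 points reversed to 2.34 with the 10000 highest peaks and 0.731 with the upper part of each list, and leaving out each library gave -1.34 to -0.590, with p from 0.333 to 0.667 over all settings with unpaired libraries. The cause was not tested. The median summit distance of 81.5 bp was 49.5 and 62.5 bp in the lists cut by score, and 32 bp under the 75 bp rule, which caps it. With the replicate number as a block the difference was -0.965 (exact sign-flip p = 0.5, the smallest 2 pairs allow). Same-numbered libraries deviated together with a correlation of 0.0124 over 258125 regions. Of the intergenic regions 89.0% were held by 1 list, which keeps such a correlation low, so it cannot settle whether the numbers pair the libraries. The labels give no pairing, and the main test used none. Depth is unknown, and the planned GC share was not run without a genome.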
